A study of Mus musculus with 20 samples.

Results

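The brains in which transcripts of activity-induced immediate-early genes were most and least abundant were compared in RNA-Seq data from *Winnie* and C57BL/6 mice. Each of the 20 brains was given a score, the mean of log2(CPM + 0.5) of *Fos*, *Arc*, *Egr1*, *Junb* and *Nr4a1*, where CPM is the number of reads of a gene scaled to the same total of reads in every brain. Within each genotype the 3 brains with the highest score and the 3 with the lowest were selected by this score, which gave 6 high and 6 low brains, 12 of the 20, and left 8 brains outside both classes. The classes are therefore not groups of the study, the 5 score genes are described without a test, and a difference in any other gene is an association with the score. *Winnie* mice carry a missense mutation of the mucin gene *Muc2* and develop colitis without treatment. C57BL/6 mice of the same colony, without the mutation, were the controls, and all mice were 14 weeks old and received no treatment according to the labels. Brain RNA of each mouse was sequenced separately. The labels name the tissue as brain and do not give the time of day at which the mice were killed by lethal injection or the interval before the brain was frozen.

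Immediate-early genes are transcribed within minutes of synaptic activity or growth factor signalling, without new protein synthesis. Calcium and MAP kinase signals reach factors that are already bound at their promoters, such as CREB at the cAMP response element (CRE) and serum response factor (SRF) at the CArG box. Their products include transcription factors (FOS and JUN, EGR and NR4A proteins), the synaptic protein ARC, and phosphatases and kinases that end the signal. In the brain these transcripts also respond to handling, stress and arousal, and they decay within a few hours.

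The promoters of several of these genes are shown because the CRE and the CArG box are the elements at which the signals converge. They are the 250 bases before the annotated start (RefSeq, GRCm38.p6), written 5′ to 3′ on the strand of the gene, with matches in capitals to the CRE TGACGTCA, to its half-site TGACG on either strand and to the CArG box. A CRE holds a half-site on each strand, so every CRE also counts as a half-site.
Fos, chr12:85473640-85473889, + strand: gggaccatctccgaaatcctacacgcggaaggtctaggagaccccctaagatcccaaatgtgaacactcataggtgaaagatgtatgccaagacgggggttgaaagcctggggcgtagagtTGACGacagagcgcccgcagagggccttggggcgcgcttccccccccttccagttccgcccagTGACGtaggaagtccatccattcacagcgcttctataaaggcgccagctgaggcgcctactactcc
Nr4a1, chr15:101266596-101266845, + strand: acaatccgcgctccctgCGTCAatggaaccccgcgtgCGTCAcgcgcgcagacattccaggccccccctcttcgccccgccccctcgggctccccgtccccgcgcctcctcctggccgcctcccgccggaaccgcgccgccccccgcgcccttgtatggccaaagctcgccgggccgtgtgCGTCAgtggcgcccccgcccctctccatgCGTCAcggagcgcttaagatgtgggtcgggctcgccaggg
Dusp1, chr17:26508473-26508722, - strand: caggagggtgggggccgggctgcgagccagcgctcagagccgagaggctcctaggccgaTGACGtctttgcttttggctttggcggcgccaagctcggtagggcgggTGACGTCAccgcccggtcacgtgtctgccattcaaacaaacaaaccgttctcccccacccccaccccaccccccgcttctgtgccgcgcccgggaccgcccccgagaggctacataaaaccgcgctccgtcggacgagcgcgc
Egr2, chr10:67537619-67537868, + strand: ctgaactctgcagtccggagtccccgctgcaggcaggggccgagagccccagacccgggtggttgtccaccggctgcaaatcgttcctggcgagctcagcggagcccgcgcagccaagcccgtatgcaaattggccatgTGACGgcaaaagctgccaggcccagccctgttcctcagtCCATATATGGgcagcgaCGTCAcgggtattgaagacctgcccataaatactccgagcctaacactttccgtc
*Fos* and *Nr4a1* were score genes, and *Dusp1* and *Egr2* were among the genes that were higher in the high brains. Of the windows shown, only that of *Dusp1* held the whole CRE, and only that of *Egr2*, which has 5 annotated windows, held a CArG box. Among 40 of the 50 immediate-early genes examined below that had a window, 7 (17.5%) held a CRE, 24 (60%) a half-site and 3 (7.50%) a CArG box, against 2.99%, 29.2% and 1.39% of the 11704 genes tested that had a window. Of the 30 genes that were higher in the high brains, 21 had a window. Of these 21, 1 (4.76%) held a CRE, *Dusp1*, 12 (57.1%) a half-site and 1 (4.76%) a CArG box, *Egr2*. The 3 score genes with a window held a half-site and neither a CRE nor a CArG box within these 250 bases, and sequence further upstream was not examined. A gene with several windows was counted if any of them held the match. These matches describe the letters in the windows and were not tested as sites.

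The score ran from 5.68 to 7.78 in C57BL/6 brains and from 5.33 to 7.13 in *Winnie* brains. The high C57BL/6 brains scored 7.78 (replicate 3), 7.74 (replicate 5) and 7.35 (replicate 1), and the low ones 6.01 (replicate 7), 5.72 (replicate 2) and 5.68 (replicate 4). The high *Winnie* brains scored 7.13 (replicate 3), 7.01 (replicate 5) and 6.94 (replicate 2), and the low ones 6.25 (replicate 7), 5.88 (replicate 8) and 5.33 (replicate 6). Each high C57BL/6 brain thus scored above each high *Winnie* brain. The limit of the high class was narrow in *Winnie*, where replicate 1, with 6.93, stood just outside it next to replicate 2, with 6.94, and that of the low class was narrow in C57BL/6, where replicate 9, with 6.05, stood just outside it next to replicate 7. The mean score was 6.57 ± 0.580 (SD, n = 10) in *Winnie* and 6.58 ± 0.809 (SD, n = 10) in C57BL/6 brains, a difference of -0.016. By labelled sex, the 5 females of *Winnie* scored 6.90 to 7.13 and the 5 males 5.33 to 6.65 without overlap, whereas in C57BL/6 the 5 females scored 5.68 to 7.78 and the 5 males 6.01 to 6.93. Of the C57BL/6 brains, replicates 3, 5, 1 and 2 had the Y-linked *Ddx3y* and scored 7.78, 7.74, 7.35 and 5.72. The others had *Xist*, from the inactive X chromosome, and scored 5.68 to 6.93, so most labels in C57BL/6 went against the RNA. As the score chose the brains, these values are given without a test.

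**Figure D1:**
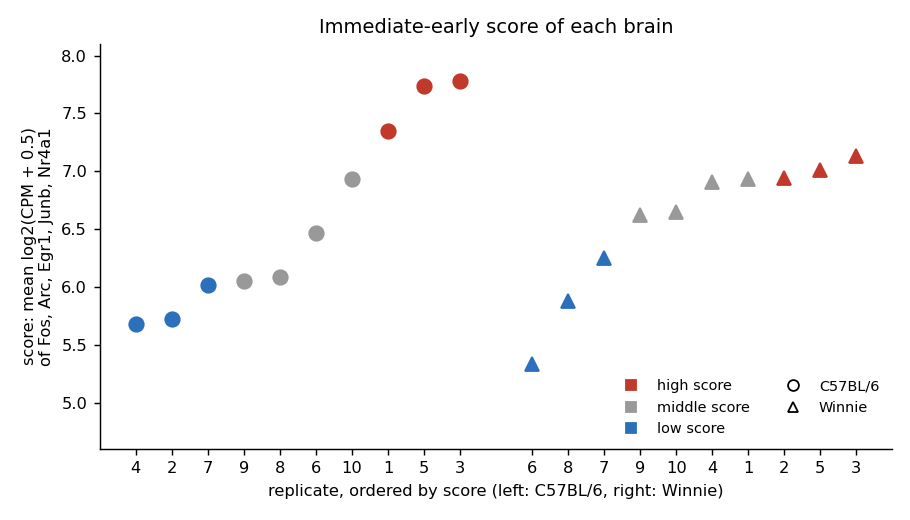
Immediate-early score (mean log2(CPM + 0.5) of *Fos*, *Arc*, *Egr1*, *Junb* and *Nr4a1*) of each of the 20 brains, ordered within C57BL/6 (circles) and *Winnie* (triangles), with high brains in red, low brains in blue and the other 8 in grey. The C57BL/6 scores reach 7.78 and the *Winnie* scores 7.13, and *Winnie* replicates 1 and 2 lie side by side at the limit of the high class.

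The score genes themselves varied together. *Fos*, which encodes a subunit of the AP-1 factor, measured 53.7, 59.6 and 65.0 CPM in the high C57BL/6 brains against 11.2, 13.7 and 21.6 CPM in the low ones, and 29.7, 41.6 and 42.8 CPM in the high *Winnie* brains against 8.67, 14.2 and 20.2 CPM in the low ones. *Arc*, which encodes a protein of the synapse involved in receptor endocytosis, had the largest ratio of class means in C57BL/6, 393 ± 93.8 CPM in high against 77.8 ± 9.77 CPM in low brains (SD, n = 3), or 5.05-fold. In *Winnie* the same means of *Arc* were 199 ± 44.4 and 80.9 ± 29.7 CPM, or 2.46-fold. The zinc finger factor *Egr1* ranged from 195 to 330 CPM in the 6 low brains and from 461 to 860 CPM in the 6 high brains, *Junb* from 23.3 to 48.0 and from 57.5 to 106 CPM, and the orphan nuclear receptor *Nr4a1* from 40.4 to 68.9 and from 122 to 218 CPM. The high C57BL/6 brains had a higher mean than the high *Winnie* brains for all 5 genes. Across the 20 brains the correlations between pairs of the 5 genes ran from 0.75 to 0.95 with a median of 0.91, with all 5 genes read from the same libraries. Leaving any single gene out of the score chose 10 or 11 of the 12 brains again, 10 without *Nr4a1*.

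The libraries behind the classes differed in ways that the score does not record. All 6 high brains were labelled female. The low brains were 2 labelled females and 1 labelled male in C57BL/6 and 3 labelled males in *Winnie*. The RNA did not follow these labels in C57BL/6: the Y-linked *Ddx3y* measured 56.0 to 63.3 CPM in the 3 high C57BL/6 brains and 64.6 CPM in 1 of the 3 low ones, and *Xist*, from the inactive X chromosome, measured 646 and 761 CPM in the other two low ones. In *Winnie* the 3 high brains had *Xist* and the 3 low brains *Ddx3y*, as labelled. Library numbers ran from 1 to 5 in high and from 2 to 7 in low C57BL/6 brains, and from 12 to 14 in high and from 16 to 18 in low *Winnie* brains (exact permutation test within genotype, p = 0.05, where the smallest p possible is 0.005). Total reads had a mean of 2.04e+07 in high and 1.89e+07 in low brains (p = 0.06 in the same test, which compares means). The medians were 19744019.5 and 18851875, within 16540303 to 23923769 over all 20. The share of reads on mitochondrial genes was 7.57% to 10.8% in high and 7.36% to 8.55% in low brains (p = 0.685). In *Winnie* the class, the labelled sex and the library number cannot be told apart, and the part of sex, depth and library number in the results that follow was tested only as far as the fits named beside them.

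Among the 17206 genes tested outside the score (limma on log2(CPM + 0.5) with genotype as covariate, Benjamini-Hochberg false discovery rate, FDR), 30 were higher in the high brains at an FDR under 0.05, 0.174% of the genes tested, and 5 were lower, 0.0291%. Of the 10 with the largest log2 differences, 9 were other immediate-early genes, and 15 of the 30 belonged to the 4 lists of immediate-early genes, whose 50 measured members are 0.291% of the genes tested. Across these 50 members, 15 (30.0%) passed the test as higher and 0 as lower. At an unadjusted p under 0.05, 43 of the 50 were higher and 0 lower, where 1515 of all 17206 genes tested differed in either direction. The count tests on the recovered reads gave 15 higher with edgeR and 28 with DESeq2, and 0 lower with either. The log2 difference was positive in 49, and its median was 0.52, or 1.44-fold, against -0.02 over all genes tested. The 6 high and 6 low brains did not overlap in 14 of the 50 (28.0%), always with the high brains above, where 0.262% of all genes tested were higher without overlap and 0.32% lower without overlap. At the threshold of the study, an FDR under 0.001 with at least a 1.5-fold difference, there were 4 genes, 0.0232%, and these were *Sik1*, *Tiparp*, *Trib1* and *Klf4*, all higher. With total reads as a further covariate 7 genes were higher and 1 lower, with labelled sex 13 and 1, and with the log2 level of *Ddx3y* 43 and 4. In the fit with labelled sex, class and label could be separated only through the C57BL/6 brains, where most labels went against *Ddx3y* and *Xist*. Leaving out *Winnie* replicate 3, 6 or 8 reduced the genes that were higher to 16, 15 or 13.

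**Figure D2:**
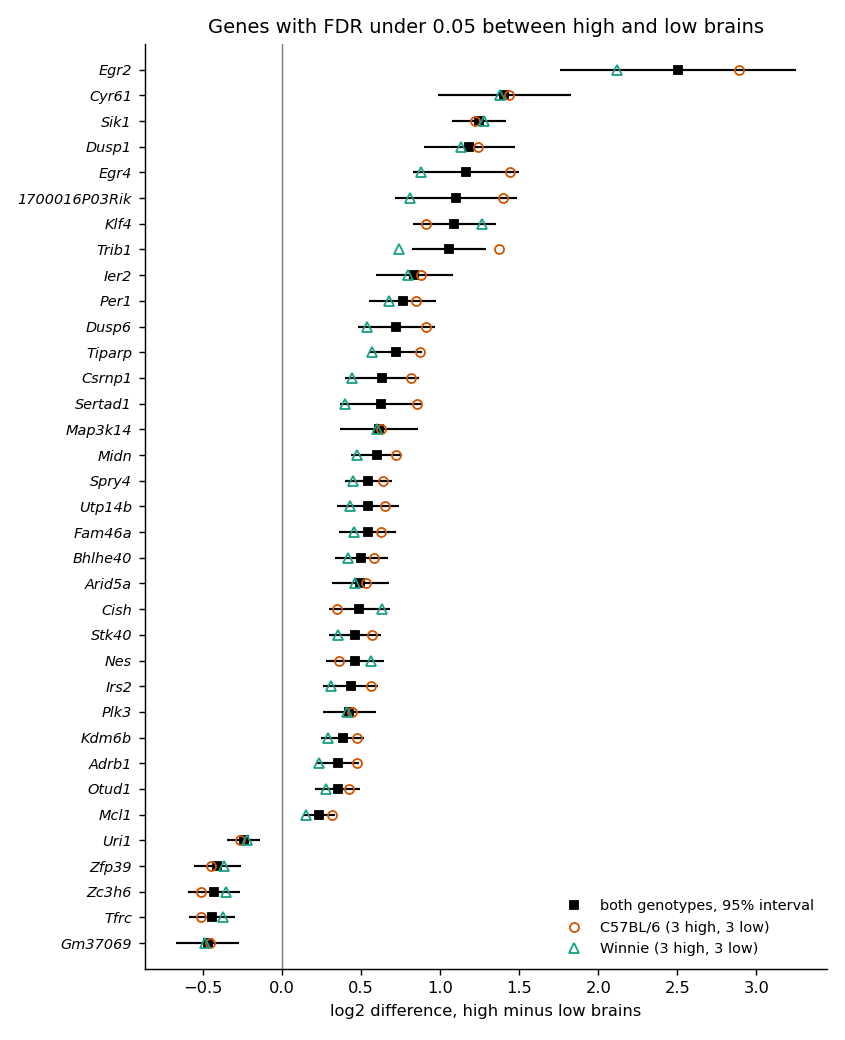
Log2 difference between high and low brains for the 35 genes with an FDR under 0.05, with the 95% confidence interval of both genotypes together (black) and the difference within C57BL/6 (orange circles) and within *Winnie* (green triangles), 3 high and 3 low brains each. *Egr2* stands apart at 2.51, and 26 of the 30 genes that were higher had the larger difference in C57BL/6.

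Kinases, phosphatases and other feedback regulators formed the largest group. Of the 26 early signalling and feedback genes measured, 9 were higher, 0 were lower and 17 did not pass the test, with a median log2 difference of 0.47 and a positive sign in all 26. *Sik1* (ENSMUSG00000024042, chromosome 17, 31844250 to 31855804 in GRCm38), a kinase that phosphorylates the CREB coactivators and so restrains CREB, measured 28.0, 32.6 and 34.7 CPM in the high and 11.5, 13.8 and 14.8 CPM in the low C57BL/6 brains. In *Winnie* it measured 29.6, 35.9 and 39.7 CPM in the high and 12.7, 14.6 and 15.025 CPM in the low brains. The classes were far apart in both genotypes, with a log2 difference of 1.25 (standard error 0.0814, limma FDR 5.28e-08), or 2.37-fold, the smallest FDR of any gene tested. Its log2 difference was 1.22 in C57BL/6 and 1.28 in *Winnie*.

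*Trib1*, a pseudokinase that directs proteins to degradation, ranged from 12.5 to 16.8 CPM (median 14.6) in low and from 23.9 to 40.5 CPM (median 30.2) in high brains, a log2 difference of 1.06 (standard error 0.110, limma FDR 3.37e-04). *Tiparp*, an ADP-ribosyltransferase induced by the aryl hydrocarbon receptor and by activity, ranged from 14.04 to 17.98 CPM (median 15.1) in low and from 20.4 to 28.6 CPM (median 26.6) in high brains, and its log2 difference was 0.72 (standard error 0.0804, limma FDR 2.40e-04). Neither gene overlapped between the classes. The highest low value of *Tiparp* came from *Winnie* replicate 7, whose score was the highest of the low *Winnie* brains.

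The MAP kinase phosphatases *Dusp1* and *Dusp6* rose by 1.19 and 0.72 on the log2 scale (limma FDR 0.00246 and 0.0195), and *Dusp1* went from 16.4 to 23.6 CPM in low brains to 36.5 to 57.8 CPM in high brains. The inhibitor of receptor tyrosine kinase signalling *Spry4* rose by 0.55 (limma FDR 9.82e-04), short of the fold change of the study's threshold although its classes did not overlap (15.9 to 20.6 and 24.4 to 30.1 CPM). *Cyr61*, a secreted matrix protein induced by SRF, was 2.65-fold higher (limma FDR 0.0114), with 3.04 to 5.63 CPM in low and 5.60 to 15.99 CPM in high brains. Its classes overlapped through *Winnie* replicate 5, at 5.60 CPM, and C57BL/6 replicate 7, at 5.63 CPM. *Plk3*, a polo-like kinase, rose by 0.43, and *Per1*, a clock gene with CREs in its promoter region that also responds to light and glucocorticoids, by 0.76 (limma FDR 0.0271 and 0.00603). *Dusp5*, another MAP kinase phosphatase, had a log2 difference of 0.85 that did not pass the test (limma FDR 0.0579), and its highest low brain, *Winnie* replicate 7 at 16.4 CPM, lay above its lowest high brain at 15.9 CPM.

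Transcription factors of the EGR and NR4A families had the largest median. Of the 5 measured beyond *Egr1* and *Nr4a1*, 2 were higher, 0 lower, and all had a positive difference with a median of 0.85. *Egr2*, a zinc finger factor of the same family as *Egr1*, had the largest difference of any gene that passed. It measured 16.96, 24.6 and 26.2 CPM in the high and 1.27, 3.46 and 3.55 CPM in the low C57BL/6 brains, and 11.4, 13.7 and 14.1 CPM in the high and 1.25, 2.46 and 5.31 CPM in the low *Winnie* brains. Every high brain was more than 2-fold above every low brain, with a log2 difference of 2.51 (standard error 0.333, limma FDR 0.0195, 23 to 588 reads per brain over all 20 brains). *Egr4* rose by 1.16 (limma FDR 0.0131), from 19.9 to 32.6 CPM in low to 41.8 to 77.5 CPM in high brains. *Egr3* had a log2 difference of 0.52 (limma FDR 0.530) and overlapped between the classes, with 46.0 to 80.8 and 59.5 to 143 CPM. Among the NR4A genes, *Nr4a3* had 0.85 (limma FDR 0.0698) without overlap and *Nr4a2* 0.38 (limma FDR 0.0973).

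The AP-1 group had similar directions and no call. Of its 7 genes 6 were measured, 0 passed the test, all 6 differences were positive and the median was 0.69, and 5 had an unadjusted p under 0.05. edgeR called 0 of the 6 and DESeq2 called 2, *Fosb* and *Fosl2*. *Fosb*, whose spliced products accumulate with repeated activity, measured 25.1 to 54.6 CPM in high and 9.28 to 24.4 CPM in low brains, a log2 difference of 1.12 (limma FDR 0.255). *Fosl2* measured 51.1 to 106 CPM in high and 32.5 to 46.9 CPM in low brains, with 0.85 (limma FDR 0.234). Both were without overlap, and their standard errors of 0.274 and 0.203 were large beside that of *Sik1* and the C57BL/6 difference exceeded the *Winnie* one (1.65 and 0.59 for *Fosb*). *Atf3*, a stress-induced factor, had 0.163 to 0.682 CPM in low and 0.628 to 1.72 CPM in high brains, on 3 to 35 reads per brain, and *Jund*, which is expressed without stimulation, had a log2 difference of 0.15 (limma FDR 0.0683 and 0.327).

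Of the 13 other early transcription factors 4 were higher and 0 lower, with a median log2 difference of 0.51. *Klf4*, a Krüppel-like factor, ranged from 4.79 to 6.56 CPM (median 5.29) in low and from 8.05 to 17.2 CPM (median 12.2) in high brains, a log2 difference of 1.09 (standard error 0.124, limma FDR 3.37e-04). *Ier2*, a nuclear protein of early responses, rose by 0.84, *Csrnp1*, a nuclear factor induced by growth signals, by 0.63, and *Bhlhe40*, a repressor of clock and activity genes, by 0.50 (limma FDR 0.00171, 0.0195 and 0.0131). *Csrnp1* overlaps *Cx3cr1* in position on the same strand. *Klf2*, named after its values were seen, had 0.87 (limma FDR 0.0984) without overlap, and in *Winnie* replicate 2 it reached 31.2 CPM against 12.9 to 19.02 CPM in the other 5 high brains. *Klf6*, also named afterwards, was the single member of the 50 with a negative difference, -0.09 (limma FDR 0.717).

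*Npas4*, singled out after its values were seen because it is induced by neuronal calcium signals and by few other stimuli, did not pass the test. It measured 32.9, 45.3 and 46.1 CPM in the high C57BL/6 brains and 13.4, 27.9 and 33.5 CPM in the low ones, and 19.4, 19.4 and 21.9 CPM in the high *Winnie* brains against 11.8, 18.9 and 22.8 CPM in the low ones. The classes overlapped in both genotypes, and the log2 difference of 0.51 had a 95% confidence interval of -0.05 to 1.08 (limma FDR 0.601). In the 8 other brains its log2 change per unit of score was -0.69 (standard error 0.478, limma FDR 0.587). *Homer1*, whose short form is an early gene of synapses, had a difference of 0.46 (limma FDR 0.587), with 129 to 347 CPM in high and 103 to 185 CPM in low brains.

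**Figure D3:**
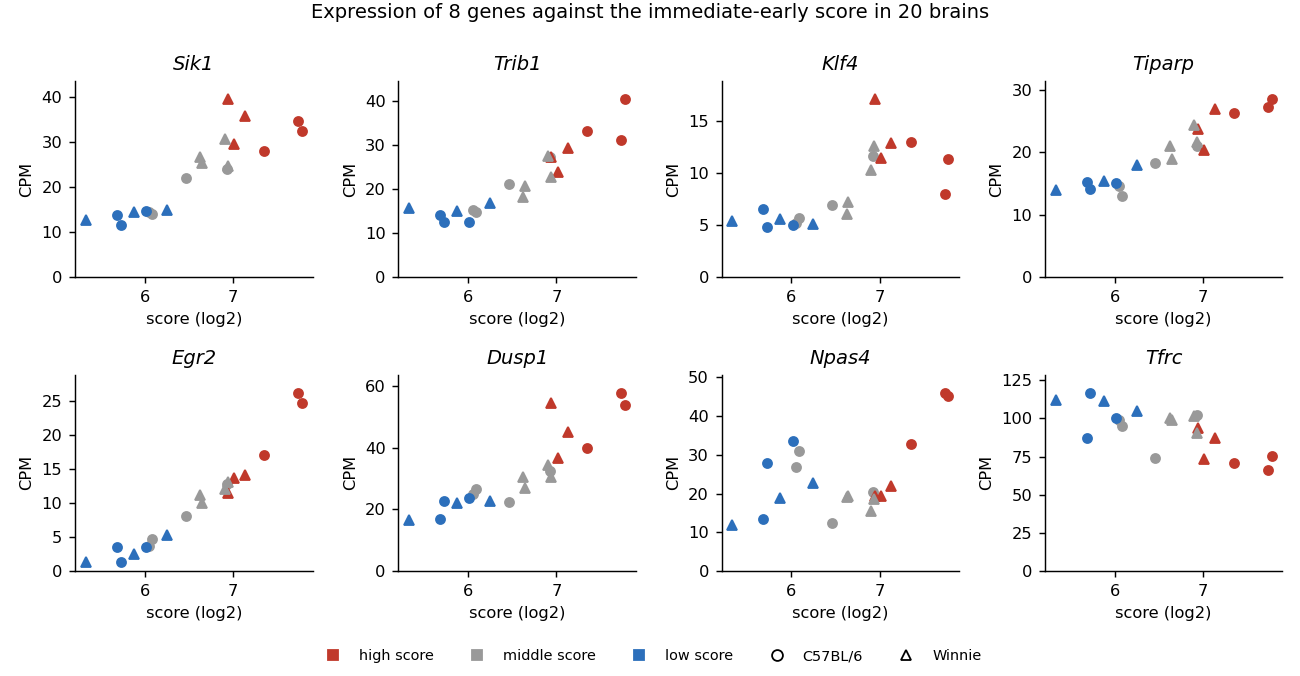
CPM of 8 genes (vertical axes from 0) against the immediate-early score on the log2 scale in all 20 brains, with high brains in red, low brains in blue and the other 8 in grey (C57BL/6 circles, *Winnie* triangles). *Egr2* runs from 1.25 to 26.2 CPM along the score, *Npas4* is spread at every score, and *Tfrc* is lower in the high brains.

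A further 15 genes outside the 4 lists were higher. *Midn*, which directs immediate-early proteins to the proteasome, ranged from 64.5 to 80.0 CPM in low and from 93.0 to 129 CPM in high brains, a log2 difference of 0.60 (standard error 0.0763, limma FDR 0.00152). The histone demethylase *Kdm6b* rose by 0.38, the nucleotidyltransferase gene *Fam46a* by 0.54, the pseudokinase gene *Stk40* by 0.46 and *Arid5a*, which stabilizes cytokine mRNAs, by 0.49 (limma FDR 0.0131, 0.00837, 0.0151 and 0.0151). The β1-adrenergic receptor *Adrb1*, through which noradrenaline raises cAMP, rose by 0.35 with 18.97 to 22.2 CPM in low and 23.0 to 30.2 CPM in high brains (limma FDR 0.0204). *Cish*, a cytokine signalling inhibitor, rose by 0.49, *Nes*, the intermediate filament nestin of progenitors and vessels, by 0.46 and *Utp14b* by 0.54, with reads of *Utp14b* shared in position with *Acsl3* on the same strand (limma FDR 0.0249, 0.0282 and 0.0154). The 5 remaining genes, named although the rule for named genes did not include them, were the insulin receptor substrate *Irs2*, the kinase *Map3k14*, the deubiquitinase *Otud1*, *Sertad1* and the anti-apoptotic *Mcl1*, with log2 differences of 0.43, 0.61, 0.35, 0.63 and 0.23 (limma FDR 0.0433, 0.0291, 0.0352, 0.0370 and 0.0430).

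The noncoding transcript *1700016P03Rik* (ENSMUSG00000085609, chromosome 11, 75172560 to 75177633 in GRCm38) rose by 1.1 on the log2 scale (standard error 0.180, limma FDR 0.0195), from 2.38 to 4.62 CPM in low to 5.18 to 13.2 CPM in high brains without overlap. It contains, on the same strand, the hairpins of a pair of microRNAs that are known targets of CREB, and their mature 3p arms are shown (RefSeq, GRCm38.p6) with the shared seed, bases 2 to 8, in capitals.
mmu-miR-132-3p: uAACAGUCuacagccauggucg
mmu-miR-212-3p: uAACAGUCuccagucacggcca
The libraries were made from polyadenylated RNA, so the level of the mature microRNAs was not measured. The gene *Ovca2* overlaps the transcript on the other strand, and the use of strand in the counting is not given in the sources used here.

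The 5 genes that were lower in high brains belonged to none of the immediate-early lists, and their differences were smaller, from -0.24 to -0.47. *Tfrc*, the transferrin receptor that takes up iron at the blood-brain barrier and in neurons, had the smallest FDR among them. It measured 66.5, 70.5 and 75.2 CPM in the high and 87.5, 100 and 117 CPM in the low C57BL/6 brains, and 73.5, 86.9 and 94.0 CPM in the high and 105, 112 and 112 CPM in the low *Winnie* brains. The classes did not overlap within either genotype, whereas *Winnie* replicate 2 at 94.0 CPM lay above C57BL/6 replicate 4 at 87.5 CPM, and the log2 difference was -0.44 (standard error 0.0697, limma FDR 0.00837). The zinc finger genes *Zfp39* and *Zc3h6* had -0.41 and -0.43, *Gm37069* had -0.47 and *Uri1*, a prefoldin-like protein, had -0.24 (limma FDR 0.0151, 0.0195, 0.0496 and 0.0498). *Gm37069* overlaps *Capn2* on the other strand. Without C57BL/6 replicate 4 the number of genes that were lower was 23, and without any other of the 12 brains it was between 1 and 7.

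The 8 brains that the choice of classes did not use gave a second reading of the same genes. Their scores ran from 6.05 to 6.93 in C57BL/6 and from 6.63 to 6.93 in *Winnie*, and the 4 C57BL/6 brains were all labelled male with 663 to 865 CPM of *Xist*. As the scores spread more widely in C57BL/6, the change per unit of score rested mostly on those 4 brains. The 4 *Winnie* brains were 2 labelled females, with *Xist* and scores of 6.93 and 6.90, above 2 labelled males, with *Ddx3y* and scores of 6.65 and 6.63, so that in this genotype the score followed sex in these brains as in the classes. Over all genes, 69 (0.401%) were higher with the score in these brains at an FDR under 0.05 and 10 (0.0581%) were lower. All 30 genes that were higher in the high brains had a positive change per unit of score here, 10 of them with an FDR under 0.05, where 46.4% of all genes tested had a positive change. All 5 genes that were lower had a negative change, 1 with an FDR under 0.05, where 53.6% of all genes tested were negative. Of the 50 immediate-early list members, 38 were positive and 10 passed the test. With labelled sex as a further covariate, added after seeing the data, 30 of the 30 were positive, where 44.8% of all genes tested were, and 12 passed, and 4 of the 5 were negative and 1 passed, among 172 genes higher and 34 lower in that fit. Within each labelled sex the *Winnie* scores were nearly equal, so that fit rested almost wholly on the 4 C57BL/6 brains.

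The change per unit of score in these 8 brains was 1.65 for *Egr2* (standard error 0.203, limma FDR 6.0e-04), 1.40 for *Klf4* (0.00737), 1.02 for both *Spry4* (0.00478) and *Trib1* (0.00558), 0.86 for *Per1* (0.0129) and 0.80 for *Sik1* (0.0409). *Nr4a3*, which missed the threshold between the classes, had 0.77 and passed here (limma FDR 0.0153). *Zc3h6* had -0.85 (limma FDR 0.0244), whereas *Tfrc* had -0.02 with a standard error of 0.159 (limma FDR 0.970). *Dusp1*, *Ier2* and *Cyr61* were positive at 0.35, 0.44 and 0.43 per unit of score with an FDR of 0.352 to 0.458. Changes per unit of score are not on the scale of the differences between the classes, and the 8 brains spanned a narrower range of scores.

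**Figure D4:**
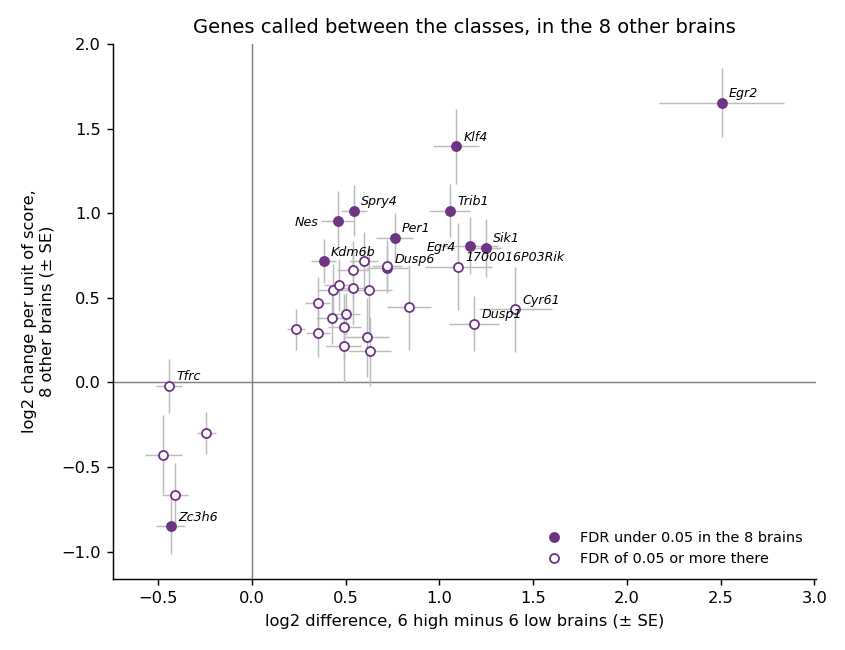
For the 35 genes with an FDR under 0.05 between the classes, the log2 difference between high and low brains (horizontal, ± standard error) against the log2 change per unit of score in the 8 other brains (vertical, ± standard error), with filled points where the FDR in the 8 brains was under 0.05. All points lie in the quadrants of equal sign, and *Tfrc* lies at -0.02 on the vertical axis.

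The size of the difference was compared between the genotypes with an interaction term, and 7 of the 17206 genes passed an FDR under 0.05, 0.0407%. The sex of the RNA nearly followed the same contrast. All 3 high C57BL/6 and all 3 low *Winnie* brains had *Ddx3y*, and all 3 high *Winnie* and 2 of the 3 low C57BL/6 brains had *Xist*. The part of sex in the interaction was not tested for any of the 7 genes. Of the 7, 2 were immediate-early genes with a larger difference in C57BL/6. *Fosl2* measured 83.9, 102 and 106 CPM in the high and 32.5, 35.1 and 38.8 CPM in the low C57BL/6 brains, and 51.1, 55.0 and 59.6 CPM in the high and 44.6, 46.1 and 46.9 CPM in the low *Winnie* brains. Its log2 difference was 1.44 in C57BL/6 and 0.26 in *Winnie* (interaction -1.18, standard error 0.125, limma FDR 2.34e-04). For *Nr4a3* the differences were 1.26 and 0.44 (interaction -0.82, limma FDR 0.0375). The C57BL/6 classes also lay further apart in score than the *Winnie* ones at the high end, with high brains at 7.35 to 7.78 against 6.94 to 7.13, and the part of this in the interaction was not tested.

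The other 5 interaction genes were not immediate-early genes. The clock output genes *Dbp* and *Nr1d1*, which follow the time of day, had log2 differences of -0.59 and -0.22 in C57BL/6 and of 0.47 and 0.58 in *Winnie* (limma FDR of the interaction 0.0110 and 0.0257). In CPM, *Dbp* was 47.5 to 55.0 in high and 65.3 to 91.1 in low C57BL/6 brains, and 94.7 to 108 in high and 69.5 to 79.9 in low *Winnie* brains. The X-linked *Ddx3x*, which escapes X inactivation, and the X-linked *Gm2223* had -0.44 and -0.55 in C57BL/6 and 0.26 and 0.62 in *Winnie* (limma FDR 0.03005 and 0.0207), and moved with the sex of the RNA, as the high C57BL/6 and the low *Winnie* brains were those with *Ddx3y* in all 3, and its part in these values was not tested. *Iqgap2*, a scaffold protein, had 0.15 in C57BL/6 and -0.56 in *Winnie* (limma FDR 0.03005).

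Genes that respond later to activity were read from a further list. Of 16 late activity genes measured, 0 passed the limma test in either direction, 3 had an unadjusted p under 0.05, 8 were positive, and the median log2 difference was 0.03. edgeR called 0 of them and DESeq2 called 1, *Gpr3*. *Gpr3*, a receptor that raises cAMP without a ligand, had the largest difference, 0.79 (limma FDR 0.0962), with 8.61 to 14.4 CPM in high and 4.69 to 9.34 CPM in low brains, and it passed in the 8 other brains with 1.17 per unit of score (limma FDR 0.0381). The growth factor *Bdnf* had 0.20 (limma FDR 0.681), the secreted peptide precursor *Vgf* 0.17 (limma FDR 0.447) and the synaptic pentraxin *Nptx2* 0.23 (limma FDR 0.707). Of the 20 kinases and factors upstream of immediate-early genes, 0 passed in either direction with limma, edgeR or DESeq2, 1 had an unadjusted p under 0.05, and the median was 0.02. *Srf* had the smallest p, with a log2 difference of 0.24 (limma FDR 0.273), and *Creb1* had 0.08 (limma FDR 0.673).

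Other states that could accompany the score were read from gene lists. For comparison with the counts below, 1515 of all 17206 genes tested had an unadjusted p under 0.05 with limma. Of 16 clock genes 1 was higher with limma and with edgeR, *Per1*, and 2 with DESeq2, *Per1* and *Nfil3*, and 0 were lower with any of these (4 higher and 1 lower at an unadjusted p under 0.05 with limma), with a median of 0.03. Of 17 glucocorticoid-induced genes, *Per1* was again the 1 that was higher with limma and with edgeR and 0 were lower, DESeq2 called *Pdk4*, *Mt2* and *Per1*, 2 of them higher and 1 lower, and 3 members were higher and 3 lower at an unadjusted p under 0.05 with limma, with a median of 0.05. Within C57BL/6 the median of the 17 was 0.26 with 14 positive, and within *Winnie* it was -0.13 with 6 positive, a contrast that was not tested. *Fkbp5*, a glucocorticoid-induced chaperone, ranged from 28.9 to 42.8 CPM in high and from 22.9 to 63.3 CPM in low brains (log2 difference -0.25, limma FDR 0.708), with the highest values in the 3 low *Winnie* brains. In the 8 other brains the clock genes *Per2* and *Dbp*, named after their values were seen, changed by 1.26 and -0.83 per unit of score (limma FDR 0.0153 and 0.0202). Of 14 hypoxia-induced genes 0 passed in either direction with limma or edgeR and 1 with DESeq2 (2 at an unadjusted p under 0.05 with limma), with a median of 0.01. Of 12 heat shock genes 0 passed with limma or edgeR and 3 were higher with DESeq2 (5 higher and 0 lower at an unadjusted p under 0.05 with limma), with a median of 0.17. *Hspb1* had the largest difference of these, 0.54 (limma FDR 0.0905). Within C57BL/6 the median of the 12 heat shock genes was 0.30 with 12 positive. Within *Winnie* it was -0.02 with 4 positive, and this contrast was not tested.

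**Figure D5:**
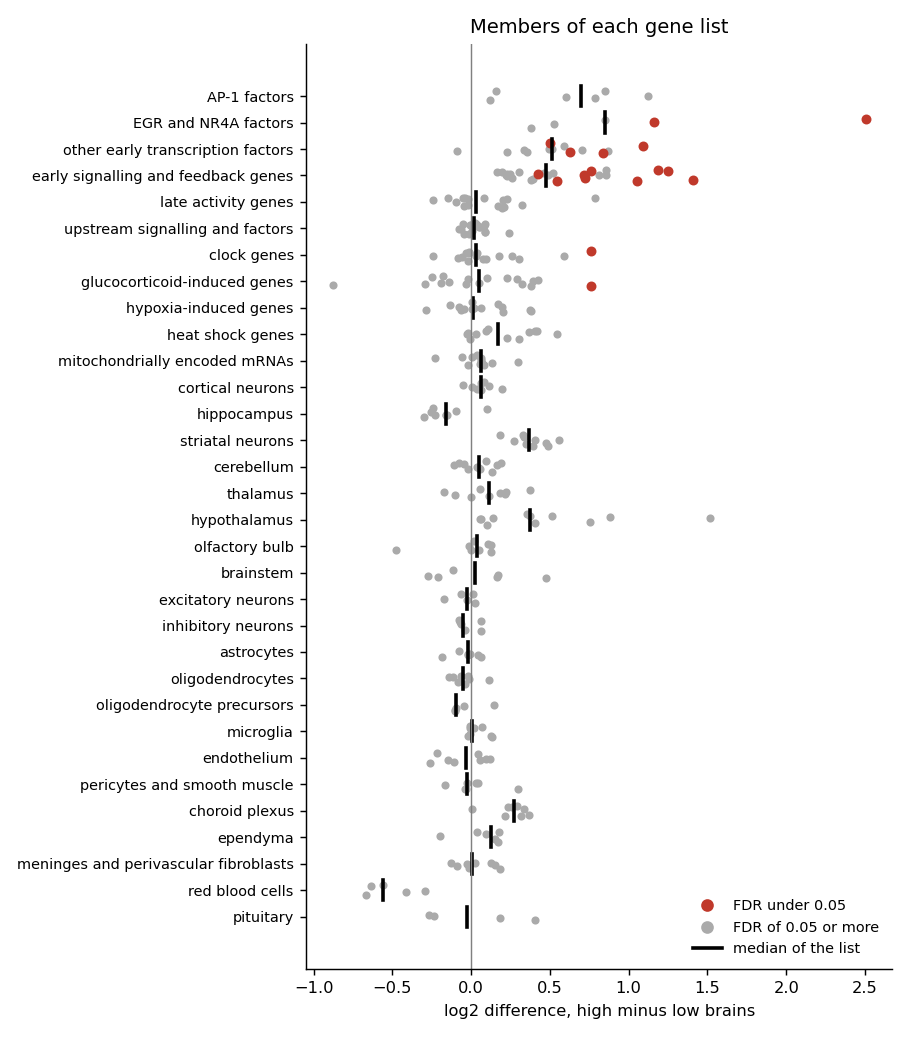
Log2 difference between high and low brains for each measured member of the gene lists (points, red where the FDR was under 0.05), with the median of each list as a black bar. The 4 immediate-early lists have medians of 0.47 to 0.85, and the medians of the other lists lie between -0.56 and 0.38.

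The tissue of the brains was read from 21 marker lists of brain regions, cell types and neighbouring tissues. Of their 153 measured genes, 0 passed the limma test in either direction, and edgeR called 0 and DESeq2 called 2. An unadjusted p under 0.05 was found in 12 of the 153, where 1515 of all 17206 genes tested had one. The summed level of the markers of excitatory neurons was 4977 to 5666 CPM in high and 4857 to 5661 CPM in low brains, that of oligodendrocytes 6565 to 7725 and 7013 to 8340 CPM, and that of microglia 290 to 349 and 294 to 351 CPM. In several lists every member had the same sign when both genotypes were fitted together. All 10 markers of striatal neurons were positive with a median of 0.37, and their sum was 368 to 1285 CPM in high and 358 to 1177 CPM in low brains. All 8 markers of the choroid plexus and all 11 of the hypothalamus were positive, with medians of 0.27 and 0.38, and sums of 684 to 1067 against 509 to 950 CPM and of 191 to 258 against 173 to 264 CPM. All 5 markers of red blood cells were negative with a median of -0.56, and their sum was 40.6 to 121 CPM in high and 93.6 to 208 CPM in low brains. Within *Winnie* the medians of the striatal, choroid plexus, hypothalamus and red blood cell lists were 0.82, 0.73, 0.72 and -1.03 with every member of the same sign, and within C57BL/6 they were -0.09, -0.13, -0.24 and -0.06, with 1 of 10, 2 of 8, 3 of 11 and 2 of 5 members positive, a difference between the genotypes that was not tested for the lists. With both genotypes together, the medians of the hippocampus, cerebellum, thalamus and cortical neurons were -0.16, 0.05, 0.11 and 0.06, and those of the other 13 lists lay between -0.10 and 0.12. Some of these lists also split by genotype. Thalamus, ependyma and meninges had 9 of 9, 6 of 6 and 7 of 8 members positive within *Winnie* (medians 0.32, 0.33 and 0.19). Within C57BL/6 they had 3, 0 and 0 positive (medians -0.10, -0.11 and -0.10). Of all 153 markers, 99 were positive within *Winnie* and 49 within C57BL/6. The part of region and blood content in the differences was not tested, and in tissue RNA fewer cells of a type and less RNA per cell cannot be told apart.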

How the data were processed

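Brain RNA of 10 C57BL/6 and 10 *Winnie* mice was made into polyA libraries and sequenced as paired reads of 100 bases. The authors processed the reads with RNAsik on the GRCm38 genome, used featureCounts to count them for each gene, and deposited CPM from Degust for 17211 genes. The aligner, the strandedness of the counting and the filter on low counts are not given in the sources used here. Every deposited CPM value was a whole number of reads (100% of values within 0.05 of a read), which gave total reads of 16540303 to 23923769 per brain. The study's text gives 8 C57BL/6 and 6 *Winnie* mice, and all 20 labelled brains were used. The separate mice of a group were the replicates.

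Differences were fitted in R 4.3.3 with limma 3.58.1 (trend and robust variance) on log2(CPM + 0.5), so that a fold change of a gene with few reads is understated, with genotype as covariate and Benjamini-Hochberg adjustment over 17206 genes. The methods of the study give edgeR, which was run as an alternative on the recovered reads (edgeR 4.0.16, DESeq2 1.42.0), and its threshold was kept. Further alternatives were other pseudocounts (0.1 and 1), only genes with a mean CPM of at least 1, median-ratio scaling, other covariates, no trend, the genotypes apart, the score as a number, a replicate block and each brain left out. The limma, edgeR and DESeq2 tests were tested on simulated data for 6 high against 6 low brains. Of simulated 1.5-fold changes, limma recovered 42.5%, edgeR 44% and DESeq2 48.5%. Of 2-fold changes they recovered 94%, 94% and 91%. Among the unchanged genes limma, edgeR and DESeq2 made 6, 6 and 14 false calls at 1.5-fold, and 9, 9 and 23 at 2-fold. The simulation gave all genes the same spread beyond read counting and held no effect of genotype, sex or library number.

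The rule, the gene lists and the tests were chosen with earlier results of these data known. Named genes were the score genes, in each activity list the 5 members with the smallest p and those passing, the first 10 genes in each direction outside the lists, and in other lists the member with the smallest p and the first marker. *Klf2*, *Klf6*, *Npas4*, *Dusp5*, *Homer1*, *Nptx2*, *Per2*, *Dbp*, *Nr1d1* and the other interaction genes were named after their values were seen. Positions come from GENCODE M21 and promoter and microRNA sequences from RefSeq tables (GRCm38.p6). By these positions *Dusp1* also overlaps *AC122252.4* and *AC122252.1*, *Map3k14* overlaps *1700028N14Rik* and *Zc3h6* overlaps *Gm14027*, each on the same strand.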

Additional observations from a re-analysis of the deposited data

Results flagged for a closer look

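Among 144 groups of 6 brains examined for a value far from the others (Dixon's test, which flags about 1 in 20 groups by chance), 4 stood out. *Per1* in *Winnie* replicate 7 was 131 CPM against 73.4 to 94.5 CPM in the other 5 low brains, and *Tiparp* in the same brain was 17.98 CPM against 14.04 to 15.4 CPM. *Klf2* in *Winnie* replicate 2 was 31.2 CPM against 12.9 to 19.02 CPM in the other high brains, and *Gadd45b*, a growth arrest gene, in C57BL/6 replicate 2 was 7.24 CPM against 4.83 to 5.69 CPM in the other low brains.

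The difference between high and low brains itself differed between the genotypes in 7 genes by the limma interaction term. In the high and low brains the sex of the RNA nearly followed the same contrast, and its part was not tested. *Winnie* less C57BL/6, the values were -1.18 for *Fosl2*, 1.05 for *Dbp*, 1.17 for *Gm2223*, 0.80 for *Nr1d1*, -0.71 for *Iqgap2*, 0.69 for *Ddx3x* and -0.82 for *Nr4a3*, with limma FDR from 2.34e-04 to 0.0375.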

How the results depend on the processing

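The genes higher in high brains numbered 30 with limma and between 22 and 43 under the other scalings, filters and pseudocounts, with edgeR, with *Ddx3y* or library number as covariate, without a covariate and in C57BL/6 alone, edgeR giving 40 higher and 6 lower. Higher, lower and study-threshold counts that moved over 1.5 times were 87, 16 and 23 with DESeq2, 13, 1 and 1 with labelled sex as covariate, 7, 1 and 2 with total reads as covariate, 73, 74 and 12 in *Winnie* alone, and 107, 23 and 8 over all 20 brains per unit of score. Without trend and robust variance there were 16 higher and 1 past the study's threshold, without a covariate 3 lower, in C57BL/6 alone 0 lower and 7 past the threshold, and with the library number, a covariate added after seeing the data, 0 lower and 2 past it. Of the 30 genes, 30 were also higher with edgeR, DESeq2 and *Ddx3y* as covariate, 21 without a covariate, 14 without trend and robust variance, 12 in C57BL/6 alone, 12 in *Winnie* alone, 11 with library number, 9 with labelled sex and 7 with total reads. The 8 other brains gave 69 higher, 10 lower and 3 past the study's threshold, and 172, 34 and 8 with labelled sex as a covariate, added afterwards. With labelled sex by genotype as covariates, also added afterwards, the 107 and 23 became 56 and 9. Leaving out each brain gave 13 to 36 higher, 1 to 23 lower and 1 to 8 past the study's threshold, and a score difference between the genotypes of -0.116 to 0.121. Of 1015 values of the 35 genes under 29 settings, 698 stayed past the threshold, 317 did not and 0 changed sign. *Sik1*, *Trib1* and *Spry4* passed in all 29. A replicate block on the shared numbers gave 30 higher, 5 lower and 4 past the study's threshold. Correlated deviations over 0.1 were found in 2 of 10 same-numbered pairs, which cannot show whether the numbers pair mice. Brains chosen were 10 to 12 of 12 under other scores.

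Differences of genes that did not pass changed sign as follows, and the cause was not tested. Per unit of score in the 8 other brains, values were -0.32 for *Jund*, -0.69 for *Npas4*, -0.046 for *Gadd45b*, -0.16 for *Nptx2*, -0.57 for *Nr1d1*, -0.41 for *Drd2*, a striatal marker, 0.25 for the globin *Hbb-bt*, 0.18 for *Iqgap2* and 0.071 for *Ddx3x*. In *Winnie* alone they were -0.016 for *Homer1*, -0.17 for *Bdnf*, -0.077 for *Nptx2*, 0.47 for *Dbp* and 0.26 for *Ddx3x*. In C57BL/6 alone they were -0.22 for *Nr1d1*, 0.11 for *Fkbp5*, -0.078 for *Drd2*, -0.55 for *Gm2223* and 0.15 for *Iqgap2*. With total reads as covariate *Dbp* had 0.012 and *Ddx3x* 0.019, with labelled sex *Nr1d1* had -0.21 and *Gm2223* -0.21, and with *Ddx3y* *Gm2223* had -0.085. With library number *Nr1d1* had -0.12, *Drd2* -0.15 and *Gm2223* -0.34. *Gm2223* had -0.051 over all 20 brains. With each brain left out, *Dbp* ran from -0.14 to 0.046 and *Gm2223* from -0.050 to 0.15. Depth limited genes of few reads, such as *Atf3* with 3 to 35 reads per brain.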
